A study of Drosophila melanogaster with 12 samples.

Results

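The dosage compensation genes of Drosophila melanogaster were 8 of the 16580 genes in a deposited table of Egg ChIP-seq and input DNA. They were lncRNA:roX1, lncRNA:roX2, msl-1, msl-2, msl-3, mle, mof and Clamp, found by gene symbol in 21 transcript rows, and reads were summed over the rows of each gene. As a group they were chosen by their Egg ChIP and input values, with the high ratio of lncRNA:roX2 already known, so the values are given as a description and no test was run on them. All 8 passed the filter on low reads, which asked for at least 10 reads in at least 2 libraries.

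Chromatin immunoprecipitation followed by sequencing (ChIP-seq) with an anti-Egg antibody was made from ovarian somatic cells, a cultured line from the fly ovary, grown in insect medium with serum, insulin and fly extract and crosslinked with 1% formaldehyde. Egg, or Eggless, is the fly SETDB1, which methylates lysine 9 of histone H3. The groups used here were the Egg ChIP and the input of cells 4 days into knockdown of egg (siEgg) and the Egg ChIP and the input of cells 4 days into knockdown against EGFP (siEGFP), a reporter gene taken as the control target. The labels list 2 samples for each of these groups, but the table has 1 column per group without a replicate number, so a column may be 1 sample or a pool of both. The libraries of the Piwi and Windei knockdowns were not analysed here. Each group is therefore treated as, and called, a single library in what follows. The 95% intervals describe counting error alone and leave out differences between cultures. The reads are DNA: they do not measure expression, so neither the identity of the cells from marker genes nor the depletion of Egg could be checked from them.

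In male flies the single X chromosome is transcribed at a raised level by the MSL complex. MSL2 and MSL1 form its core with MSL3, the helicase MLE and the acetyltransferase MOF, which acetylates lysine 16 of histone H4, and the noncoding RNAs roX1 and roX2 are part of it. The zinc finger protein CLAMP binds GA repeats and guides the complex to the X. In females Sex-lethal blocks translation of msl-2, the complex does not form and roX RNA is not maintained. The roX genes are themselves among the strongest entry sites of the complex on the X.

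Positions are those of dm6 from the RefSeq annotation. lncRNA:roX1 lies at X:3857230-3862697, lncRNA:roX2 at X:11579065-11580432 and mof at X:5873840-5876853. The other genes are autosomal, with msl-2 at 2L:3462218-3466112, msl-1 at 2L:18683720-18688800, Clamp at 2L:22165720-22169143, msl-3 at 3L:7123213-7125533 and mle at 2R:5974857-5980778. The row values cover transcript sequence, so introns removed from every listed transcript and the DNA upstream of a gene are not part of them. The longest row equalled the whole genomic span for lncRNA:roX2 (1368 bases) and mof (3014 bases).

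The recovered depths were 1698148 reads for the siEgg ChIP and 2293964 for the siEgg input, against 1796866 for the siEGFP ChIP and 2183061 for the siEGFP input. Transcript and transposon rows took 33.6% to 36.8% of them, and the median of the 12487 genes tested had 20 reads in each ChIP and 27 and 28 reads in the siEgg and siEGFP inputs. Ratios below are log2 of ChIP over input RPKM (reads per kilobase of row, scaled to library depth) with a pseudocount of 0.7 RPKM. A gene was called if it reached 2-fold, a log2 value of 1 or more in size, with an interval that left out 0.

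Of the 8 genes, lncRNA:roX2 carried Egg signal well above input. It had 34 ChIP reads against 16 input reads in siEgg cells, and 126 ChIP reads against 10 input reads in siEGFP cells. On the RPKM scale these levels were 14.6 and 5.10 in siEgg cells and 51.3 and 3.35 in siEGFP cells. The ChIP library exceeded its input in both knockdowns, and the siEGFP ChIP was the highest of the 4 libraries. The ratio was 2.64-fold in siEgg cells, a log2 value of 1.40 (interval 0.62 to 2.48), and 12.8-fold in siEGFP cells, a log2 value of 3.68 (3.01 to 5.03). lncRNA:roX2 was the only one of the 8 called above input, in either knockdown. Among all genes tested 1.23% were called above input in siEgg cells and 5.57% in siEGFP cells, while 1.11% and 7.46% were called below it, a call that none of the 8 received. Its inputs were shallow, and a filter of 20 reads in each input removed lncRNA:roX2 from the genes tested. By its ratio lncRNA:roX2 ranked 77 of 12487 in siEgg cells and 14 in siEGFP cells.

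**Figure D1:**
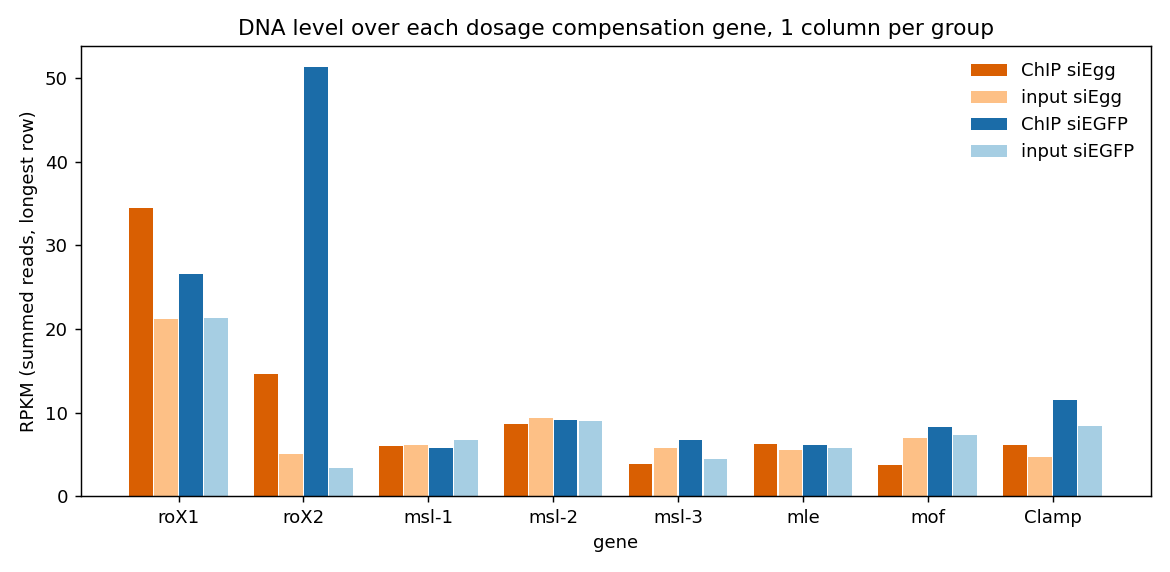
Level over each of the 8 genes in RPKM (y axis, summed reads over the length of the longest row) in the siEgg ChIP, siEgg input, siEGFP ChIP and siEGFP input, 1 bar per library and no error bars because there is 1 column per group. The siEGFP ChIP bar of lncRNA:roX2 reaches 51.3 RPKM, and all 4 bars of lncRNA:roX1 lie at or above 21.2 RPKM.

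The ratio of lncRNA:roX2 fell by 2.28 on the log2 scale in siEgg relative to siEGFP cells (interval -3.61 to -1.13). It ranked 60 from the lowest change of 12487 genes. Comparing the ChIP libraries alone, without inputs, the value was -1.76 (-2.40 to -1.25), and the inputs alone gave 0.52 (-0.62 to 1.91) on 16 and 10 reads. The fall thus lay mainly in the ChIP libraries, and the interval of the inputs included 0. It was the only called change in ratio among the 8 genes. Over all genes 3.64% were called lower and 6.33% higher in this comparison, and the median change was 0.22.

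Most of the reads of lncRNA:roX2 stood in the row that spans the gene without splicing. That row of 1368 bases held 24 of 34 ChIP reads and 11 of 16 input reads in siEgg cells, and 101 of 126 ChIP reads and 7 of 10 input reads in siEGFP cells. Its deposited values were 10.3 and 3.51 RPKM in siEgg ChIP and input and 41.1 and 2.34 RPKM in siEGFP ChIP and input. Without a pseudocount the row was 2.95-fold above input in siEgg cells (log2 interval 0.47 to 2.74) and 17.5-fold in siEGFP cells (3.04 to 5.48). The other 5 rows, of 281 to 693 bases, together had 10 ChIP and 5 input reads in siEgg cells and 25 ChIP and 3 input reads in siEGFP cells. These gave log2 ratios of 1.43 (-0.25 to 3.33) and 3.34 (1.63 to 5.71), so both sets of rows stood above input in siEGFP cells. The row of 652 bases had no input reads in either knockdown, against 5 ChIP reads in siEgg cells and 11 in siEGFP cells. Taking 3 reads as the most that an empty input library allows, its signal was at least 2.25-fold above input in siEgg cells and at least 4.45-fold in siEGFP cells, with the ChIP reads taken as exact. With the counting error of the ChIP reads included, the log2 intervals began at 0.31 and 1.61. The rows of 693, 602, 522 and 281 bases had 1, 0, 1 and 3 ChIP reads against 3, 1, 1 and 0 input reads in siEgg cells. In siEGFP cells these were 4, 3, 3 and 4 against 0, 0, 2 and 1. Rows of a gene share sequence and are not independent measurements. Reads appeared divided among them, so the bound holds for the reads given to the row of 652 bases, not for its DNA.

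**Figure D2:**
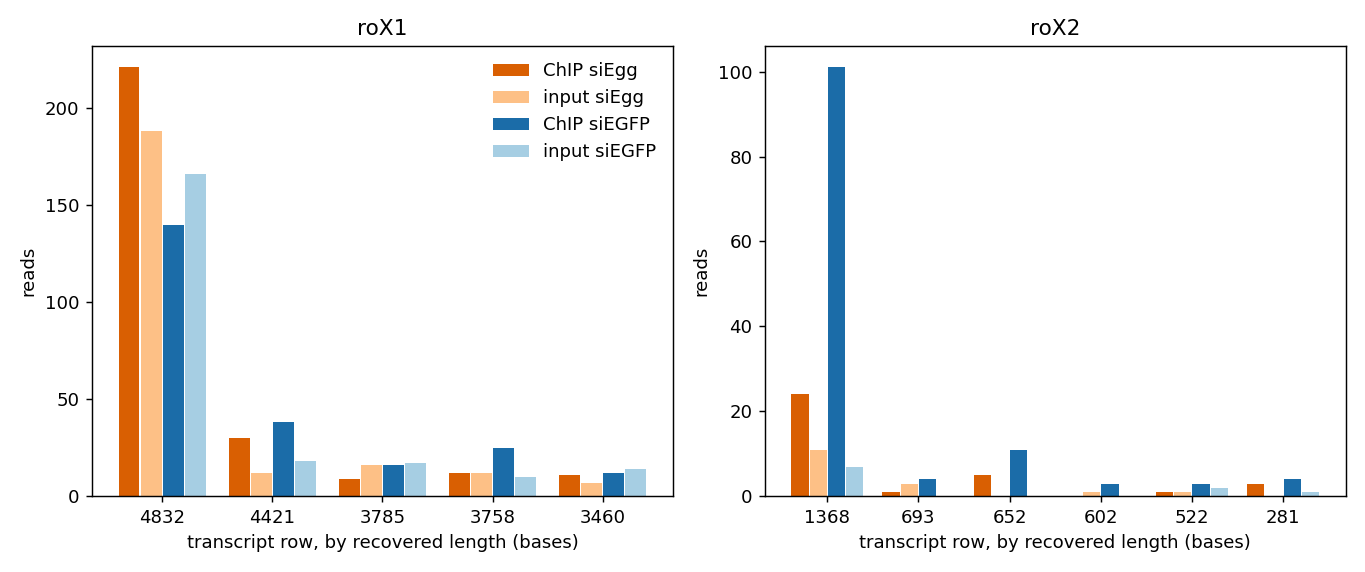
Reads (y axis) in each transcript row of lncRNA:roX1 (left) and lncRNA:roX2 (right), rows ordered by recovered length in bases, with a bar for each of the 4 libraries. The longest row holds most reads of both genes, and at lncRNA:roX2 its siEGFP ChIP bar stands at 101 reads.

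The other roX gene behaved differently in these libraries. lncRNA:roX1 had 283 ChIP reads against 235 input reads in siEgg cells and 231 against 225 in siEGFP cells, or 34.5 and 21.2 RPKM against 26.6 and 21.3 RPKM. The siEgg ChIP was the highest of its libraries and the inputs were nearly equal. The log2 ratio was 0.68 in siEgg cells (0.45 to 0.96) and 0.31 in siEGFP cells (0.05 to 0.59), both short of 2-fold. Its change of 0.37 (0.02 to 0.75) ran opposite to that of lncRNA:roX2, but it was not called, was 0.16 after centring on the median of all genes, and was -0.09 without the row that held most reads. The interval of the lncRNA:roX1 change did not overlap that of the lncRNA:roX2 change. Both hold counting error alone, and lncRNA:roX2 was chosen with its high ratio known, so this is no test of a difference between them.

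Reads over lncRNA:roX1 were many already in the input, a level that sums 5 rows, and summed levels were higher for genes with more rows (median siEGFP input 6.20 RPKM with 1 row and 8.84 RPKM with 5). Its input level was 3.33 times that of the median gene in siEgg cells and 3.10 times in siEGFP cells, ranking 152 and 153 of 12487. At lncRNA:roX2 the input was 0.801 and 0.487 times the median gene in siEgg and siEGFP cells, ranking 9939 and 12123 of 12487. Its high ratio in siEGFP cells thus rests partly on a low input. The excess at lncRNA:roX1 stood in 1 row of 4832 bases, with 17.0 RPKM in the siEgg input and 15.7 RPKM in the siEGFP input. Its 4 other rows had 0.882 to 1.84 RPKM in the siEgg input and 1.22 to 2.06 RPKM in the siEGFP input.

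The rows of lncRNA:roX1 differed in their Egg signal too. The row of 4832 bases had 221 ChIP and 188 input reads in siEgg cells and 140 ChIP and 166 input reads in siEGFP cells. Its log2 ratio was 0.67 (0.38 to 0.96) in siEgg cells and 0.04 (-0.30 to 0.37) in siEGFP cells. The 4 other rows together had 62 ChIP and 47 input reads in siEgg cells and 91 ChIP and 59 input reads in siEGFP cells. Their log2 ratio was 0.83 (0.26 to 1.41) in siEgg cells and 0.91 (0.42 to 1.40) in siEGFP cells. In siEGFP cells the row with most reads thus lay within counting error of its input. The other rows together stood 1.78-fold and 1.87-fold above input in siEgg and siEGFP cells, but they were not alike. The row of 4421 bases stood at 3.38-fold (log2 interval 0.75 to 2.86) and 2.56-fold (0.51 to 2.26) in siEgg and siEGFP cells. That of 3758 bases stood at 1.35-fold (-0.85 to 1.72) and 3.04-fold (0.49 to 2.83). The rows of 3785 and 3460 bases stood at 0.76-fold and 2.12-fold in siEgg cells and 1.14-fold and 1.04-fold in siEGFP cells. Their intervals all included 0. Between the ChIP libraries the row of 4832 bases had a log2 value of 0.74 (0.43 to 1.06) in siEgg relative to siEGFP cells, and the other rows -0.47 (-0.96 to 0.01).

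**Figure D3:**
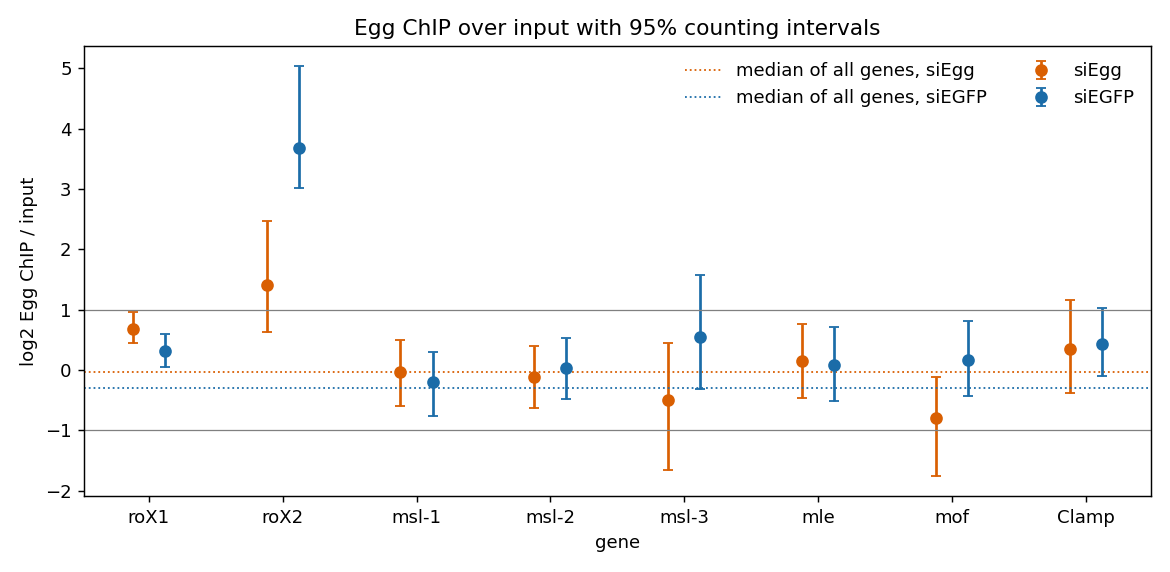
log2 Egg ChIP over input (y axis) for the 8 genes in siEgg and siEGFP cells. Points are the values with a pseudocount, bars the 95% counting intervals, dotted lines the medians of all genes tested and grey lines the 2-fold limits. lncRNA:roX2 stands at 1.40 and 3.68, and the 6 protein genes lie between -0.79 and 0.55.

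None of the 6 protein genes was called above or below input. msl-2, the RING finger subunit whose absence in females keeps the complex from forming, had 56 ChIP and 82 input reads in siEgg cells and 63 and 75 in siEGFP cells. Its log2 ratios were -0.11 (-0.63 to 0.39) and 0.03 (-0.48 to 0.53). msl-1, the scaffold that MSL2 binds, had 51 ChIP and 71 input reads in siEgg cells and 52 and 74 in siEGFP cells, with ratios of -0.04 (-0.59 to 0.50) and -0.21 (-0.77 to 0.30). At these core subunits the ChIP lay within counting error of its input in either knockdown.

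mle, the RNA helicase that remodels roX RNA, had 43 ChIP and 52 input reads in siEgg cells and 45 and 51 in siEGFP cells. Its ratios were 0.14 (-0.46 to 0.77) and 0.09 (-0.51 to 0.71), and the change was 0.05 (-0.76 to 0.88). msl-3, the chromodomain subunit, rested on the fewest reads of the protein genes, with 13 ChIP and 26 input reads in siEgg cells and 24 and 19 in siEGFP cells. Its ratios of -0.49 (-1.65 to 0.45) and 0.55 (-0.31 to 1.57) had opposite signs. The change of -1.04 passed 2-fold, but its interval of -2.43 to 0.13 included 0 and it was not called. After centring it was -1.26 and called lower.

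mof, which encodes the acetyltransferase and is the X-linked protein gene among the 8, had 19 ChIP and 48 input reads in siEgg cells and 45 and 48 in siEGFP cells. The siEgg ChIP was the low library, and the other 3 were alike. Its ratio was -0.79 in siEgg cells (-1.75 to -0.11) and 0.17 in siEGFP cells (-0.43 to 0.81). The change of -0.96 had an interval below 0 (-2.03 to -0.11) but fell short of 2-fold, while between the ChIP libraries alone mof fell by 1.03 on the log2 scale (-2.02 to -0.36) and was called lower in siEgg. With a pseudocount 5 times larger the value between the ChIPs was -0.71 and not called, while centring on the median of all genes took the change to -1.18, which was called. At any size, the interval of the change lay below 0 for lncRNA:roX2 and mof among the 8 genes and for 4.72% of all genes, and above 0 for lncRNA:roX1 and for 10.3% of all genes. Between the ChIP libraries 4.78% of all genes were called lower and 4.02% higher, and of the 8 genes lncRNA:roX2 and mof were called lower.

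Clamp had 30 ChIP and 31 input reads in siEgg cells and 60 and 53 in siEGFP cells. Both siEgg libraries were low, so that the log2 ratios of 0.34 (-0.39 to 1.16) and 0.43 (-0.10 to 1.02) were close to each other. Between the ChIP libraries the value was -0.85 (-1.60 to -0.26) and between the inputs -0.76 (-1.53 to -0.18), each under 2-fold. No gene of the 8 was called between the inputs, where 0.312% of all genes were called higher and 1.08% lower in siEgg.

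As a group, the 8 genes had a median log2 ratio of 0.05 in siEgg cells and 0.24 in siEGFP cells, beside -0.04 and -0.29 over all genes tested. For the 6 protein genes alone the medians were -0.07 and 0.13. The median change was -0.11 for the 8 genes, beside 0.22 for all genes. By ChIP level per length, the order in siEgg cells began with lncRNA:roX1, lncRNA:roX2 and msl-2 (8.58 RPKM) and ended with msl-3 (3.89) and mof (3.71). In siEGFP cells it began with lncRNA:roX2, lncRNA:roX1 and Clamp (11.5 RPKM) and ended with mle (6.17) and msl-1 (5.76). With 1 library per group no replicate spread was available to separate neighbours in these orders.

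Of the 3 X-linked genes among the 8, lncRNA:roX2 alone was called above input. Among 2059 X genes tested 0.923% were called above input in siEgg cells and 6.46% in siEGFP cells, beside 1.27% and 5.22% of 10327 genes on 2L, 2R, 3L and 3R. Median input levels were 6.58 RPKM on the X and 6.33 RPKM on these arms in siEgg cells, and 7.25 and 6.80 RPKM in siEGFP cells. Among 603 lncRNA genes 2.82% were called above input in siEgg cells and 9.12% in siEGFP cells.

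Signal near lncRNA:roX2 was patchy. Of 10 genes of the table within 10 kb, 8 had enough reads. In siEGFP cells 2 of these were called above input, beside 5.57% of all genes tested. Reepl1, 5425 bases away on the side of lower coordinates, had 10 ChIP and 11 input reads in siEgg cells and 45 and 11 in siEGFP cells. Its log2 ratios were 0.26 (-1.10 to 1.67) and 2.17 (1.34 to 3.41), and it fell by 1.91 (interval -3.49 to -0.44). Between the ChIP libraries its value was -1.97 (-3.24 to -1.08) and between the inputs -0.06 (-1.42 to 1.28). asRNA:CR44266, 7707 bases away on the same side, had 14 ChIP and 19 input reads in siEgg cells and 31 and 9 in siEGFP cells. Its ratios were -0.01 (-1.11 to 1.07) and 1.91 (0.96 to 3.32), and it fell by 1.92 (-3.44 to -0.57). Between the ChIP libraries its value was -1.01 (-2.09 to -0.11) and between the inputs 0.91 (-0.21 to 2.33), so the fall in ratio was not in the ChIP alone. This antisense gene overlaps CG11699, and DNA reads of such a pair cannot be told apart.

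The other genes tested near lncRNA:roX2 were not called above input. CG11695, 259 bases away, had 0.29 in siEgg cells and 0.26 in siEGFP cells. On the other side nod, a kinesin-like gene of chromosome segregation 340 bases away, had 0.32 (-0.16 to 0.82) and 0.70 (0.30 to 1.16). CG11696, 2913 bases away, had 0.34 and 0.49 in siEgg and siEGFP cells. Farther off than Reepl1, Kmn1 at 6623 bases had 0.27 and -0.48, and Polr2A, the largest subunit of RNA polymerase II, at 8739 bases had 0.04 and -0.42. pkm, 1525 bases away, had 0.13 in siEgg cells and -1.04 in siEGFP cells and was called below input in siEGFP cells and higher in siEgg, at 1.18 (0.14 to 2.45). Both of these calls ended after centring, at -0.75 and 0.96. The span of pkm lies inside that of nod, whose longest row held 2449 of its 4979 bases. Whether rows of the pair share sequence cannot be told from these positions. CG11699 and e(y)2 had too few reads, with 7 and 8 ChIP reads in siEGFP cells. In siEGFP cells the intervals of the genes tested within 3 kb all lay below that of lncRNA:roX2, whose high ratio was known beforehand.

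At lncRNA:roX1 none of the 3 genes tested within 10 kb was called above input in either knockdown. Over all genes tested the shares were 1.23% in siEgg cells and 5.57% in siEGFP cells, so 3 genes are too few to set the 2 neighbourhoods apart. ec, whose end overlaps lncRNA:roX1 by 392 bases, had ratios of -0.08 (-0.48 to 0.30) in siEgg cells and -0.61 (-1.10 to -0.24) in siEGFP cells. yin, 269 bases away, had 35 ChIP and 38 input reads in siEgg cells and 20 and 58 in siEGFP cells, with ratios of 0.29 (-0.39 to 1.02) and -1.13 (-2.07 to -0.50). It was called below input in siEGFP cells and higher in siEgg, at 1.41 (0.57 to 2.53). With pooled inputs these were -0.84 and 0.79 and not called. The value of 0.79 is that between the ChIP libraries, since a pooled input cancels from a change. The span of yin overlaps that of CG2930. CG2930 had -0.24 and -0.55 in siEgg and siEGFP cells.

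**Figure D4:**
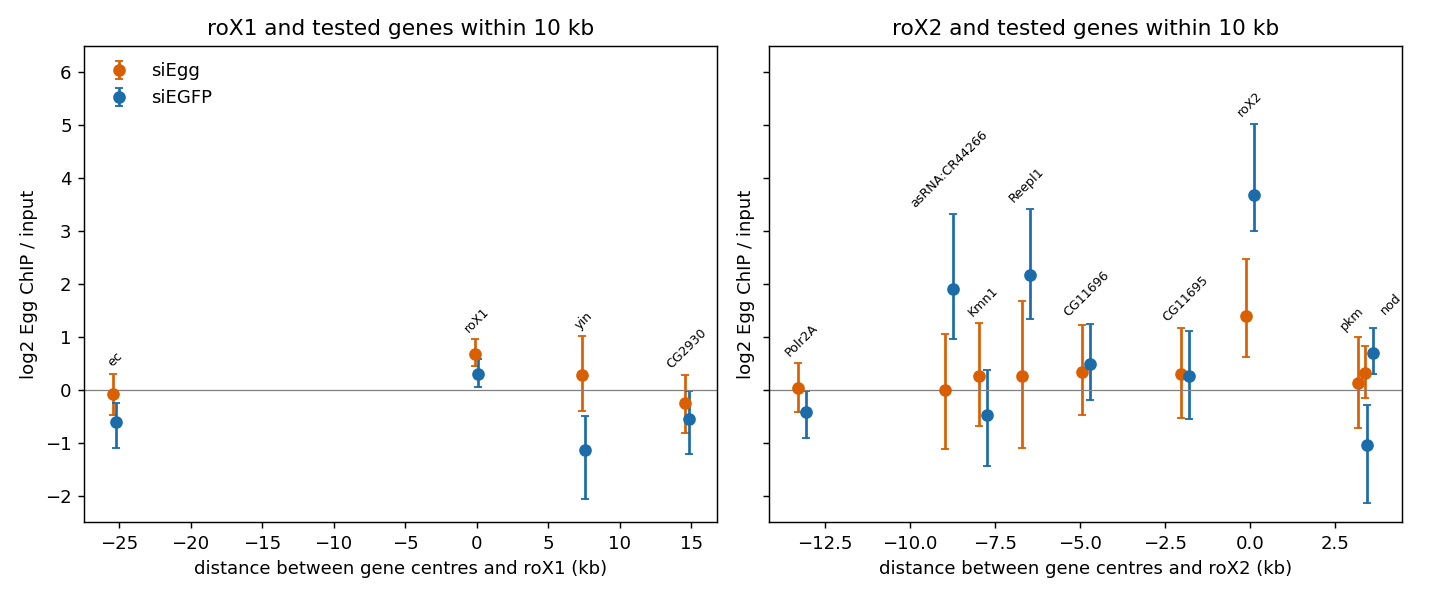
log2 Egg ChIP over input (y axis) for lncRNA:roX1 (left), lncRNA:roX2 (right) and the tested genes within 10 kb of each, by distance between gene centres in kb, in siEgg and siEGFP cells. Bars are 95% counting intervals. Beside lncRNA:roX2, Reepl1 and asRNA:CR44266 stand at 2.17 and 1.91 in siEGFP cells, and CG11696 and CG11695, between Reepl1 and lncRNA:roX2, at 0.49 and 0.26.

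The genes most like lncRNA:roX2 were taken as the 5 at the smallest distance in the plane of both log2 ratios, among 4046 genes with at least 30 reads in the siEGFP ChIP. This likeness rests on 4 libraries. MED21, a subunit of Mediator at 3L:25114924-25115946, was nearest at a distance of 0.13, with ratios of 1.51 in siEgg cells and 3.75 in siEGFP cells. It had 23 ChIP and 10 input reads in siEgg cells and 102 and 8 in siEGFP cells. Acyp2 had 1.54 and 3.82, lncRNA:CR45618 had 1.66 and 3.88, asRNA:CR45164 had 1.65 and 3.91 and CG34132 had 1.20 and 4.10 in siEgg and siEGFP cells. lncRNA:CR45618, at X:11716063-11716720, is on the same chromosome as lncRNA:roX2, and the others are autosomal. The siEGFP inputs of these 5 genes held 2 to 8 reads and the siEgg inputs 4 to 10. Acyp2, lncRNA:CR45618, asRNA:CR45164 and CG34132 had under 10 reads in both inputs and passed the filter through their ChIP libraries alone. The limit of 30 reads in the siEGFP ChIP also favours genes high in that library. The likeness is thus partly set by the filters and is given as a description.

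**Figure D5:**
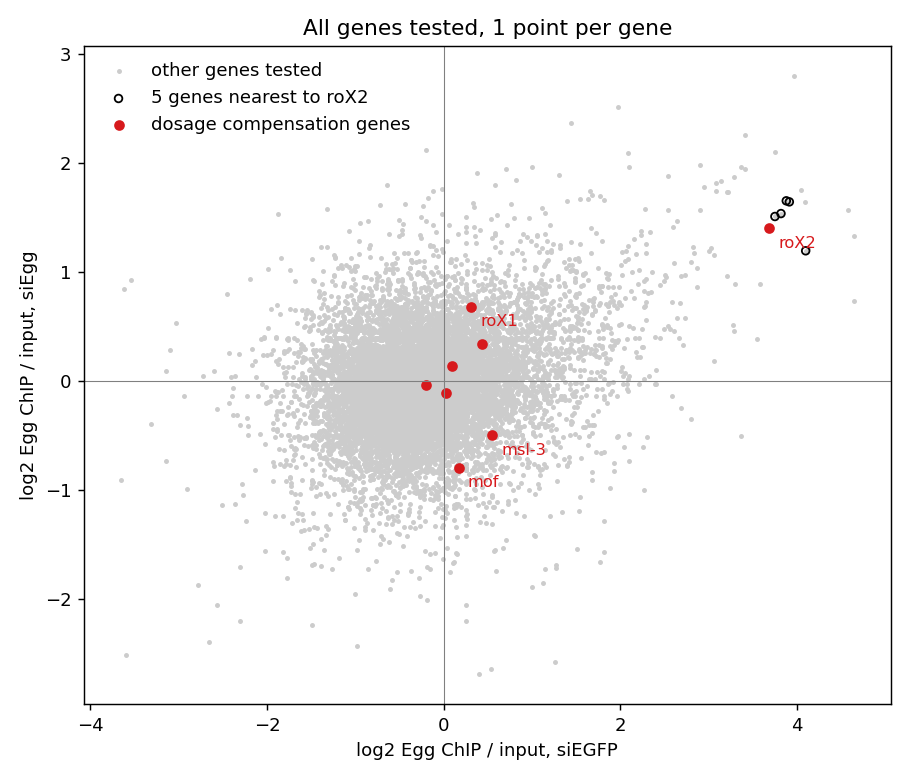
log2 Egg ChIP over input in siEgg cells (y axis) against siEGFP cells (x axis) for the 12487 genes tested, with the 8 dosage compensation genes in red and the 5 genes nearest to lncRNA:roX2 as open circles. lncRNA:roX2 lies at 3.68 on the x axis and 1.40 on the y axis, apart from the other 7.

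Genes that act with or on the dosage compensation machinery were described by list. Of the 6 genes of the NSL complex, the other complex that contains MOF, none was called in any of the 5 comparisons, and the median ratio was 0.13 in siEgg cells and 0.21 in siEGFP cells. Among 12 chromatin factors linked to the MSL complex or to GA repeats, none was called above input in siEgg cells and 2 in siEGFP cells, beside 1.23% and 5.57% of all genes tested. Trl, which encodes the GAGA factor, had 27 ChIP and 38 input reads in siEgg cells and 54 and 29 in siEGFP cells, with ratios of -0.05 (-0.83 to 0.69) and 1.02 (0.50 to 1.88). It was also called lower in siEgg, at -1.07 (-2.18 to -0.26). Iswi, a chromatin remodelling ATPase, had 48 ChIP and 33 input reads in siEgg cells and 68 and 37 in siEGFP cells, with ratios of 0.86 (0.31 to 1.66) and 1.05 (0.56 to 1.78). Both calls in siEGFP cells lay just above 2-fold, and with a pseudocount 5 times larger the values were 0.66 for Trl and 0.77 for Iswi, neither called. The list as a whole had medians of -0.04 and -0.01 in siEgg and siEGFP cells.

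Of 12 genes of sex determination and msl-2 repression, none was called against input, with medians of 0.05 in siEgg cells and -0.10 in siEGFP cells. Sxl, whose protein represses msl-2, had ratios of -0.25 and 0.05, and Unr, its partner in that repression, had -0.25 and -0.52. snf, a splicing factor gene needed for Sxl, was called lower in siEgg between the ChIP libraries at -1.32 (-2.92 to -0.13). It was also called lower between the inputs at -1.20 (-2.86 to -0.01), on 7 and 17 input reads, and its change in ratio was -0.11. With a pseudocount 5 times larger both calls ended, at -0.996 and -0.84. Among the 5 genes of the chromosome 4 counterpart, none was called in any comparison. Pof, which encodes the protein that coats chromosome 4, had 0.66 and 0.40, and egg itself had -0.01 and -0.67 in siEgg and siEGFP cells.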

How the data were processed

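The deposited values are RPKM, reads per kilobase of row scaled to library depth, as judged from the values of the authors' table. Reads were mapped with Bowtie2 2.2.4 to dm6 per the submitters' processing notes, and the counting program and the treatment of reads with several matches are not given in the sources used here. Whole reads were recovered from the RPKM: within each of 34762 rows the 4 values stood in whole-number ratios within 0.0001 reads, and 740 rows were 0. Absolute depth was set so that row lengths equalled annotated genomic spans, which 2642 of 8578 rows of single-row genes gave alike. Reads appeared divided among the rows of a gene, since the median siEGFP input was 6.20 RPKM per row for genes with 1 row and 1.73 with 5 rows. They were therefore summed and divided by the longest row, which gave medians of 6.94 RPKM with 2 rows and 8.84 with 5, so levels of genes with many rows may be overstated. A ratio uses the same length in both libraries. For short rows with few reads a common factor of reads and length can be missed.

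Rows were matched to RefSeq (Release 6) by accession (34925) or by symbol or synonym (355), and 47 were unmatched and kept under their own names. The 175 transposon rows were left out of gene counts. A gene was tested where at least 2 libraries held 10 reads or more and an RPKM over the pseudocount. For a ratio, the exact Clopper-Pearson interval of the share of reads in either library was used. For a change, the interval was a normal one after adding 0.5 to the counts. They carry no pseudocount, so a value need not be at their centre. No p-values were computed, since a single column leaves no spread between samples of a group; the planned model for replicates could not be used. Calculations used Python 3.11.15, NumPy 2.4.6 and SciPy 1.17.1, and were tested on simulated data. Named genes were the 8 genes, genes within 10 kb of a roX gene, called members of the other lists (with Sxl, Unr, Pof and egg named besides) and the 5 genes nearest to lncRNA:roX2. Members and lists were chosen with earlier results of these data known. One listed gene, Mtor, stands in the annotation as Mgtor. Alternatives were 2 other pseudocounts, 2 scalings, pooled inputs, 2 filters and the row with most reads only.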

Additional observations from a re-analysis of the deposited data

Results flagged for a closer look

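For 3 of the 8 genes the ratio of ChIP to input differed between the knockdowns by more than counting error, judged by an interval of the difference that left out 0, at any size. By that rule 10.3% of all genes tested were higher and 4.72% lower in siEgg. With 1 library per group this compares libraries, not conditions. lncRNA:roX2 changed by -2.28 (interval -3.61 to -1.13), with 34 ChIP reads in siEgg and 126 in siEGFP cells. mof changed by -0.96 (-2.03 to -0.11), with 19 and 45 ChIP reads. lncRNA:roX1 changed by 0.37 (0.02 to 0.75), an interval that holds the median change of all genes, 0.22, and after centring on that median its change was 0.16. Among the 4 other rows of lncRNA:roX1, without the row of most reads, the ChIP reads were 62 and 91.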

How the results depend on the processing

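No paired analysis was possible because the columns carry no replicate number and each group has 1 column. For the same reason no replicate could be left out. Filters and some other alternatives cannot alter a gene's value. Of the 229 values of the 8 genes that an alternative did alter, 222 kept their side of the threshold, 6 became called, 1 was no longer called and none reversed a call. With at least 20 reads in each input lncRNA:roX2 (16 and 10 input reads) and msl-3 (26 and 19) were not tested. Without lncRNA:roX2 the members called above input were 0 in each knockdown, those lower in siEgg by ratio 0 and by ChIP 1. The call of lncRNA:roX2 was kept under the other alternatives. Members called lower by ratio, 1 as reported, were 3 after centring (mof -1.18, msl-3 -1.26), 3 with gene rows as library size, 2 with pooled inputs (mof -1.03) and 2 with a pseudocount 10 times smaller. A pooled input cancels from a change. With pooled inputs a change is therefore the value between the ChIP libraries already given, not a separate result. With a pseudocount 5 times larger mof had -0.71 between the ChIPs and 1 member was called lower there. Without its row of most reads, an alternative added after the data were seen, lncRNA:roX1 had 0.75 in siEgg and 0.84 in siEGFP, and its change was -0.09.

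Counts over all genes moved more. With the pseudocount 5 times larger, genes called above and below input were 67 and 42 in siEgg (153 and 138 as reported) and 452 and 217 in siEGFP (696 and 931). Higher calls by ratio change were 367 (790), ChIP calls 135 higher and 369 lower (502 and 597) and input calls 6 and 20 (39 and 135). Centring gave 1136 above and 302 below input in siEGFP, 399 higher and 741 lower by change (790 and 455), 319 higher by ChIP and 67 and 87 by input. With gene rows as library size 571 were below input in siEGFP and inputs gave 66 and 86. Without a filter 84 were higher by input. With 20 reads in each input, 8 and 79 were called in siEgg, 197 and 598 in siEGFP, 477 and 181 by change, 264 and 181 by ChIP, and 0 and 4 by input. The median of all genes in siEGFP, -0.29 as reported, was -0.15 with gene rows as library size. The calls of Trl ended with the larger pseudocount (0.66 in siEGFP) and with pooled inputs (0.88). That of Iswi ended with the larger pseudocount (0.77). Those of yin and pkm below input in siEGFP ended after centring (-0.83 and -0.75), with pooled inputs, with gene rows as library size and with the larger pseudocount. Depth limits the values most at lncRNA:roX2, whose inputs held 16 and 10 reads, and at msl-3.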

Other observations

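Around the 8 genes together, 43 genes within 10 kb had enough reads, of which 1 was called above input in siEgg cells and 6 in siEGFP cells, beside 1.23% and 5.57% of all genes tested. Those beside the autosomal genes and mof are given here after their values were seen. lncRNA:CR44809, 525 bases from Clamp, had 48 ChIP and 47 input reads in siEgg cells and 99 and 46 in siEGFP cells, with log2 ratios of 0.46 (-0.15 to 1.08) and 1.37 (0.87 to 1.92). lncRNA:CR44127, 7111 bases from mle, had 10 ChIP and 6 input reads in siEgg cells and 15 and 6 in siEGFP cells, with ratios of 1.11 (-0.43 to 2.91) and 1.53 (0.16 to 3.26). It passed the filter on low reads through its ChIP libraries alone, which favours a ratio above input, and it is among the 6 called. CG10336, 728 bases from msl-1, had ratios of 0.08 in siEgg cells and 1.82 in siEGFP cells, while msl-1 itself had -0.04 and -0.21. lncRNA:CR45668, 5627 bases from mof, had -0.30 and 1.14. BBS1, 372 bases from msl-3, had 1.04 in siEgg cells and -1.19 in siEGFP cells, and its inputs differed by -1.33. The spans of lncRNA:CR45668 and BBS1 overlap those of CG16721 and Acbp4.

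On the X, 6.75% of genes were called lower in siEgg between the ChIP libraries, beside 4.31% on 2L, 2R, 3L and 3R, and 2.48% beside 4.32% were called higher. The median X gene had 0.01 in that comparison and the median gene of these arms 0.16, and with 1 library per group a difference between cultures and one between libraries cannot be told apart.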
